A study of Rattus norvegicus with 12 samples.

Results

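A set of 10 genes of Toll-like receptor sensing was followed in the rat pubocaudalis, a pelvic floor muscle, after birth injury. They were taken by symbol from the 30206 genes of the count table: the surface receptors and co-receptors Tlr2, Tlr4, Cd14, Cd180 and Ly86, the endosomal receptors Tlr3, Tlr7, Tlr8 and Tlr9, and the shared adaptor Myd88. All rats were 3-month-old female Sprague-Dawley rats that underwent simulated birth injury (SBI, balloon distention of the vagina) late in pregnancy and then delivered. Pups were removed after delivery in the non-lactating groups, 1wk SBI and 3wk SBI, and stayed with the dam in the lactating groups, 1wk SBI + Lac and 3wk SBI + Lac. Muscle was collected 1 or 3 weeks after SBI. Each group had 3 libraries of messenger RNA, each made from pooled RNA of 2 rats, and no uninjured muscle was among the 12 libraries, so a level cannot be read against healthy muscle. The comparisons ask how much of these receptors' RNA the injured muscle held with and without lactation, and whether surface and endosomal receptors moved alike.

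Toll-like receptors recognize conserved microbial molecules and molecules released from damaged cells. Receptors on the cell surface mostly bind lipids and proteins, whereas the endosomal receptors bind nucleic acids after delivery to endosomes by the chaperone Unc93b1. Tlr2, Tlr7, Tlr8 and Tlr9 signal through Myd88, Tlr3 through the adaptor Ticam1 (Trif) and Tlr4 through both, whereas Cd14, Cd180 and Ly86 are accessory molecules without a signaling domain of this kind. In injured muscle these receptors are best known from macrophages and other leukocytes that clear damaged fibers.

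The upstream sequences of 4 members are shown because their RNA had the largest lactation difference of the set (Cd180), the smallest at 1 week (Tlr3), or similar differences in neighboring genes on the X chromosome (Tlr7 and Tlr8). Each is the 250 bases before the annotated gene start in RefSeq (GRCr8), read 5′ to 3′ in the direction of the gene. All 4 are on the plus strand, Cd180 at chr2:35589680-35589929, Tlr3 at chr16:53554666-53554915, Tlr7 at chrX:30644176-30644425 and Tlr8 at chrX:30708476-30708725. Capitals mark the match of a searched motif.
Cd180: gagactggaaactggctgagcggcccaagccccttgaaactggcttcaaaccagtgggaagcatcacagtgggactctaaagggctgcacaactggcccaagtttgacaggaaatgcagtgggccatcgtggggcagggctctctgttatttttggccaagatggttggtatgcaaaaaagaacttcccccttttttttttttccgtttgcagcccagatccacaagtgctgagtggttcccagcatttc
Tlr3: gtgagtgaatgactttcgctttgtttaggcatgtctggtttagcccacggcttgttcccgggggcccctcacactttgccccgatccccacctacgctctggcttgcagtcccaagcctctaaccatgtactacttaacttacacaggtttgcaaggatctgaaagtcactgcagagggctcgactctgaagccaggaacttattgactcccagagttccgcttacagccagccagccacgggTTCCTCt
Tlr7: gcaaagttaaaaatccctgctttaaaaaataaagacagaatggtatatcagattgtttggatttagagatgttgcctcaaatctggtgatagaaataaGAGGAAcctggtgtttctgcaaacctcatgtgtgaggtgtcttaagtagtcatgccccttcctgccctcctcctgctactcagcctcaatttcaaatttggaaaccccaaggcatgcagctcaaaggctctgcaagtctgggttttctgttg
Tlr8: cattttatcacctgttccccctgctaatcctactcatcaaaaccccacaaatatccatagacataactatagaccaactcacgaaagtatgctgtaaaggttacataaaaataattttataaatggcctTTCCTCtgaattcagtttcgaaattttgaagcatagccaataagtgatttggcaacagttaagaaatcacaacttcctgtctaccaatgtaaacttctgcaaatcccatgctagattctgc

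The motifs, searched on both strands, were GAGGAA, a core bound by the myeloid factor PU.1, and TGANTCA, a site of AP-1 factors such as Jun. RefSeq promoters were found for 9 of the 10 members, all but Ly86. GAGGAA was in the window of 6 of the 9 (Tlr3, Tlr4, Tlr7, Tlr8, Tlr9 and Cd14) and in 23.3% of all 33469 promoters. The capitals lie 152 to 147 bases before the start in Tlr7 and, as the reverse complement, 121 to 116 bases before it in Tlr8 and 7 to 2 bases before it in Tlr3. TGANTCA was in 2 of the 9, Tlr9 and Myd88, and in 6.34% of all promoters. Cd180 held neither set of letters in this window. The motifs were chosen after the expression values were seen, and a match is a description of these letters only.

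All 10 members had lower RNA in lactating than in non-lactating muscle at both times, with a median log2 fold change of -0.51 at 1 week and -0.59 at 3 weeks. Over all 14599 genes tested the medians were -0.0038 and -0.02, and 50.5% and 52.3% of genes were lower. In bulk tissue, fewer cells of a type and less RNA per cell cannot be told apart. Cd180 at 3 weeks was the 1 member that fell past both cutoffs, which were an adjusted p below 0.05 (edgeR's quasi-likelihood test) and a log2 fold change beyond 1 in size. The counts were thus 0 of 10 members at 1 week, where 0.253% of all genes passed, and 1 of 10 at 3 weeks, where 0.74% passed. The study had itself named Cd180 among genes higher without lactation at 3 weeks in these data. Its call here is therefore not an independent result, and its count beside the share of all genes is a description only. At an unadjusted p under 0.05 there were 4 members at 1 week and 5 at 3 weeks, beside 18.9% and 21.1% of all genes. With DESeq2 on all libraries, 1 member, Cd180, passed both cutoffs at each time, beside 1.36% and 1.79% of the genes to which DESeq2 gave an adjusted p.

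The direction of Cd14, Ly86 and Myd88 at 3 weeks depended on 1 library. Replicate 3 of the group 3wk SBI, the deepest library, held the highest level of its group for all 10 members. Without it, 7 of 10 members were lower at 3 weeks, the median log2 fold change was -0.27, Cd14 (0.33), Ly86 (0.0042) and Myd88 (0.09) turned higher, and Cd180 (-1.55, adjusted p = 0.0745 in edgeR) no longer passed. In 3wk SBI + Lac the deepest library, replicate 2, held the highest level of its group for 7 of 10 members. With that library left out, all 10 members were lower at 3 weeks and the median was -0.76. At 1 week all 10 members stayed lower whichever library was left out. Total counts per library were 30862144 to 51662983 at 1 week and 10082570 to 75634209 at 3 weeks, and the sparsest member values, all at 3 weeks, were 2 counts (Tlr9) and 4 counts (Tlr9 and Cd180).

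**Figure D1:**
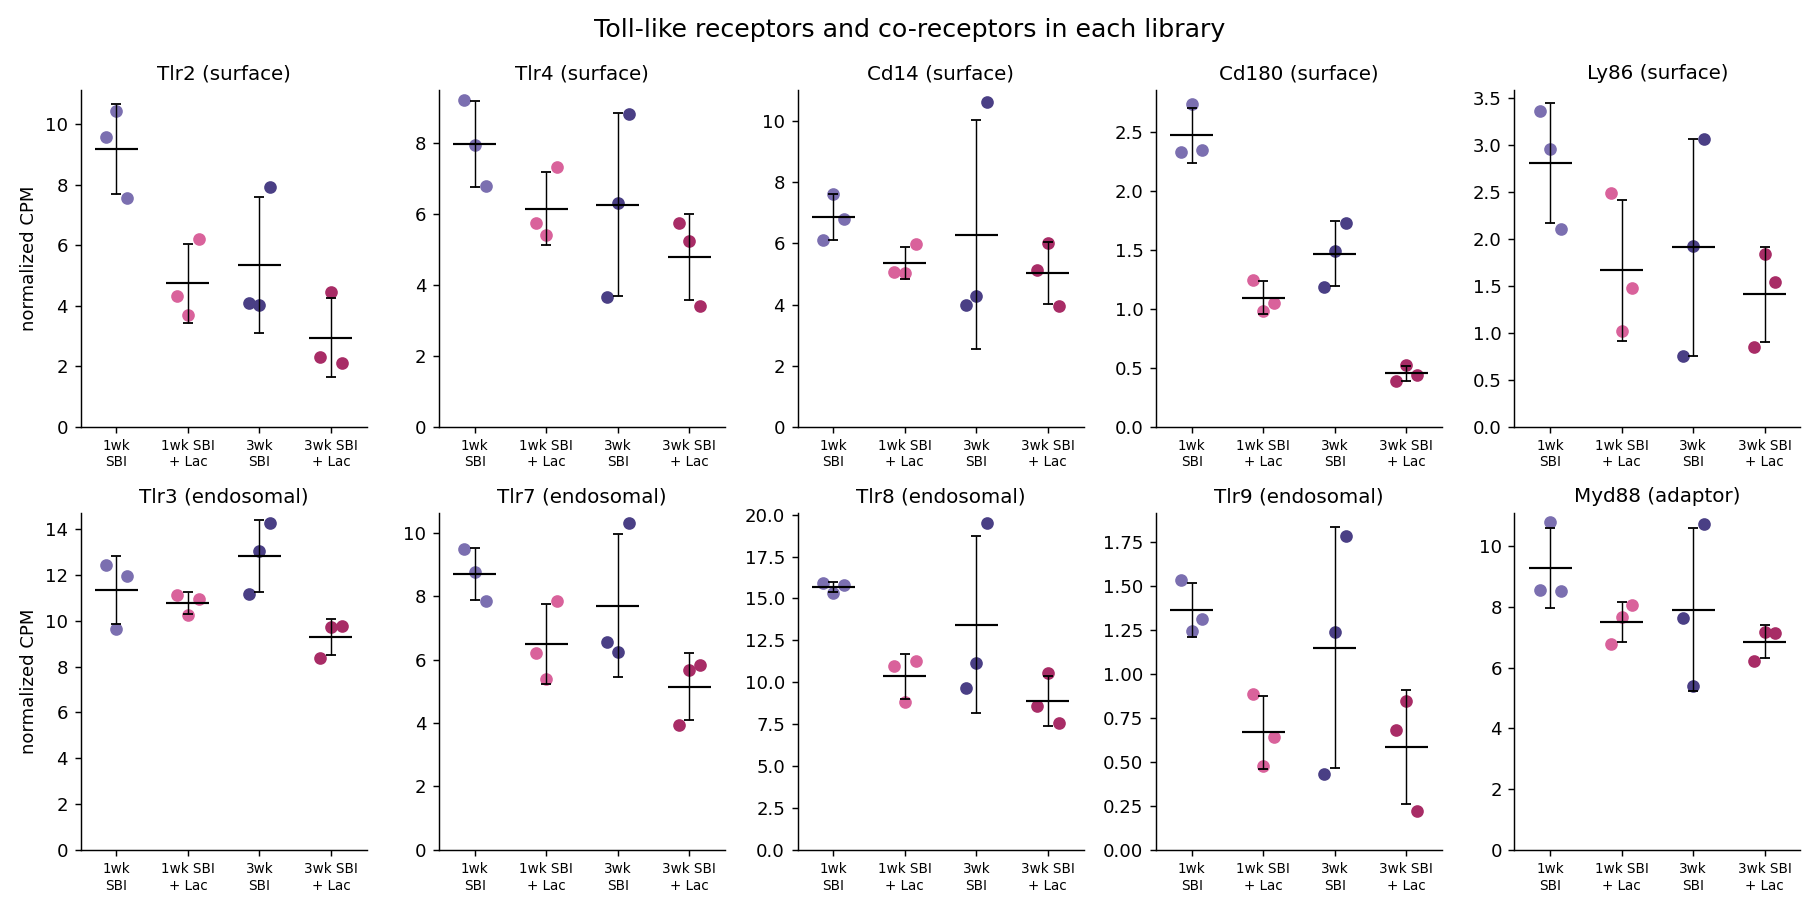
Normalized CPM (y axis, linear, from 0) of each member in every library (points) of the 4 groups (x axis), with the mean of 3 libraries (long bar) and SD (error bar). The highest 3wk SBI point is the same library in all 10 panels, and Cd180 separates the lactating from the non-lactating libraries at both times.

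Each level is a CPM value, the gene's share of its library after TMM normalization, for replicates 1, 2 and 3 in order. They are compared between groups for one gene at a time, since transcript length was not corrected for.

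Cd180, a leucine-rich repeat receptor related to Tlr4 that is expressed on B cells and myeloid cells, was at 2.32, 2.73 and 2.34 CPM in 1wk SBI and at 1.25, 0.983 and 1.05 CPM in 1wk SBI + Lac. At 3 weeks it was at 1.18, 1.49 and 1.73 CPM without lactation and at 0.391, 0.520 and 0.440 CPM with it. The groups did not overlap at either time, and the 3-week lactating libraries were the lowest of all 12. The log2 fold change with lactation was -1.17 (SE 0.28, adjusted p = 0.0617) at 1 week and -1.71 (SE 0.33, adjusted p = 0.0151) at 3 weeks. The 1-week difference passed both cutoffs when 1wk SBI replicate 3 was left out (adjusted p = 0.0498), a fit whose share of all genes passing is not reported here. The 3-week libraries with lactation held 12, 32 and 4 Cd180 counts, and those without held 11, 24 and 144. The 3-week call was also lost when replicate 1 (adjusted p = 0.0726) or replicate 2 (adjusted p = 0.0510) of 3wk SBI + Lac was left out, with only the 3-week libraries in the edgeR fit (adjusted p = 0.0930) and with replicate number as a block (adjusted p = 0.109).

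Ly86, also known as MD-1, is the secreted partner that binds Cd180 and is needed for its surface display. It was at 3.37, 2.95 and 2.11 CPM in 1wk SBI, 2.49, 1.02 and 1.48 CPM in 1wk SBI + Lac, 0.751, 1.92 and 3.06 CPM in 3wk SBI and 0.847, 1.84 and 1.54 CPM in 3wk SBI + Lac. The groups overlapped at both times, with log2 fold changes of -0.76 (SE 0.42, adjusted p = 0.337) and -0.56 (SE 0.45, adjusted p = 0.499). The ratio of Cd180 to Ly86 counts within a library, which does not depend on library scaling, was 0.462, 0.283 and 0.286 in 3wk SBI + Lac and 1.57, 0.774 and 0.565 in 3wk SBI. These groups did not overlap, and the difference of the mean log2 ratios was -1.40 (exact two-sided permutation p = 0.1, the smallest that 3 against 3 libraries can give). At 1 week the ratios overlapped, at 0.691, 0.926 and 1.11 without lactation and 0.500, 0.967 and 0.710 with it (exact permutation p = 0.5).

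Tlr2, which recognizes bacterial lipoproteins as a dimer with Tlr1 or Tlr6, was at 9.58, 10.4 and 7.54 CPM in 1wk SBI and at 4.33, 3.70 and 6.21 CPM in 1wk SBI + Lac. The groups did not overlap, and the means were 9.19 and 4.75 CPM, a log2 fold change of -0.95 (SE 0.31, adjusted p = 0.121). At 3 weeks it was at 4.08, 4.03 and 7.93 CPM without lactation and at 2.31, 4.44 and 2.09 CPM with it. These groups overlapped, with a log2 fold change of -0.84 (SE 0.33, adjusted p = 0.161), and without 3wk SBI replicate 3 it was -0.36.

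Tlr4, the receptor for bacterial lipopolysaccharide, was at 9.20, 7.95 and 6.77 CPM in 1wk SBI, 5.74, 5.39 and 7.31 CPM in 1wk SBI + Lac, 3.65, 6.32 and 8.82 CPM in 3wk SBI and 5.73, 5.22 and 3.41 CPM in 3wk SBI + Lac. The groups overlapped at both times, with log2 fold changes of -0.37 (SE 0.25, adjusted p = 0.431) and -0.41 (SE 0.26, adjusted p = 0.396). Cd14, the co-receptor that hands lipopolysaccharide to the Tlr4 complex, was at 6.12, 7.63 and 6.82 CPM in 1wk SBI and at 5.08, 5.02 and 5.97 CPM in 1wk SBI + Lac. Its 1-week groups did not overlap, but the difference was small, with a log2 fold change of -0.35 (SE 0.29, adjusted p = 0.534). At 3 weeks Cd14 was at 3.97, 4.27 and 10.6 CPM without lactation and at 5.15, 6.00 and 3.96 CPM with it, and the log2 fold change of -0.37 (SE 0.30, adjusted p = 0.505) rested on the single value of 10.6. The ratio of Cd14 to Tlr4 counts overlapped between lactating and non-lactating libraries at both times. The ratio of Tlr2 to Tlr4 counts was 1.04, 1.31 and 1.11 in 1wk SBI and 0.754, 0.686 and 0.850 in 1wk SBI + Lac, without overlap (difference of mean log2 ratios -0.60, exact permutation p = 0.1), and overlapped at 3 weeks. In all, 14 such differences were tested (6 ratios and the difference between the receptor classes, at 2 times), and the smallest adjusted p was 0.4.

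Tlr3, which binds double-stranded RNA and signals without Myd88, differed least at 1 week. It was at 12.4, 9.67 and 12.0 CPM in 1wk SBI and at 11.1, 10.2 and 11.0 CPM in 1wk SBI + Lac, overlapping groups with a log2 fold change of -0.07 (SE 0.13, adjusted p = 0.800). At 3 weeks it was at 11.2, 13.1 and 14.3 CPM without lactation and at 8.40, 9.74 and 9.78 CPM with it. Those groups did not overlap, and the log2 fold change was -0.48 (SE 0.14, adjusted p = 0.0783). Tlr3 also had the most even libraries, its SD never above 13.0% of the group mean.

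Tlr7 and Tlr8, neighboring genes whose products bind single-stranded RNA and its breakdown products, had lower means with lactation at both times. Tlr7 was at 9.49, 8.77 and 7.85 CPM in 1wk SBI, 6.20, 5.39 and 7.86 CPM in 1wk SBI + Lac, 6.54, 6.25 and 10.3 CPM in 3wk SBI and 3.94, 5.68 and 5.83 CPM in 3wk SBI + Lac. The groups met at 7.85 and 7.86 CPM at 1 week and did not overlap at 3 weeks, with log2 fold changes of -0.42 (SE 0.21, adjusted p = 0.290) and -0.64 (SE 0.22, adjusted p = 0.126). Tlr8 was at 15.9, 15.3 and 15.8 CPM in 1wk SBI and at 11.0, 8.82 and 11.3 CPM in 1wk SBI + Lac, without overlap. At 3 weeks Tlr8 was at 9.66, 11.2 and 19.5 CPM without lactation and at 8.56, 10.5 and 7.58 CPM with it, which overlapped. Its log2 fold changes were -0.60 (SE 0.21, adjusted p = 0.142) and -0.62 (SE 0.22, adjusted p = 0.126). The ratio of Tlr7 to Tlr8 counts lay between 0.460 and 0.768 in all 12 libraries and overlapped between lactating and non-lactating libraries at both times.

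Tlr9, the receptor for unmethylated CpG DNA, had the lowest single count in every group. It was at 1.54, 1.25 and 1.31 CPM in 1wk SBI and at 0.885, 0.475 and 0.645 CPM in 1wk SBI + Lac, without overlap. At 3 weeks it was at 0.429, 1.24 and 1.79 CPM without lactation and at 0.684, 0.846 and 0.220 CPM with it, which overlapped. The log2 fold changes were -1.03 (SE 0.46, adjusted p = 0.245) and -0.94 (SE 0.48, adjusted p = 0.283). The 1-week difference missed the adjusted p cutoff only, and the 3-week difference missed both cutoffs. Myd88, the adaptor, was at 8.56, 10.8 and 8.51 CPM in 1wk SBI, 6.79, 7.66 and 8.05 CPM in 1wk SBI + Lac, 7.62, 5.39 and 10.7 CPM in 3wk SBI and 6.22, 7.17 and 7.15 CPM in 3wk SBI + Lac. Its groups did not overlap at 1 week, and its log2 fold changes of -0.31 (SE 0.20, adjusted p = 0.416) and -0.25 (SE 0.21, adjusted p = 0.526) were among the smaller of the set.

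**Figure D2:**
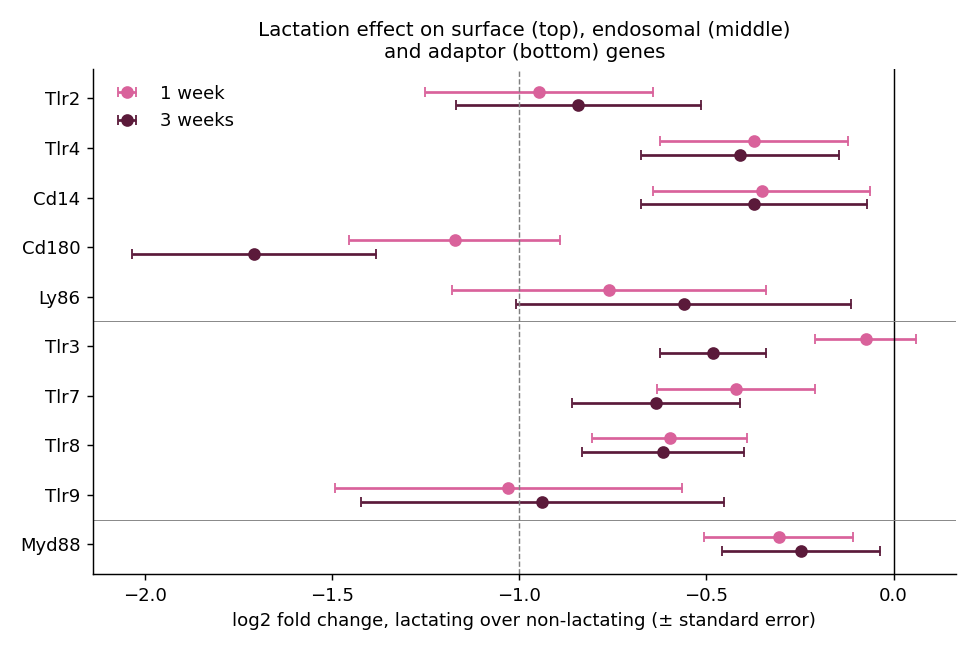
Log2 fold change of lactating over non-lactating muscle (x axis) for each member (y axis) at 1 week and 3 weeks, from edgeR, with a standard error derived from its test statistic (bars). The dashed line marks the fold cutoff of -1. All 20 points lie below 0, and Cd180 lies furthest to the left at both times.

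Of the 10 members, 6 had every lactating library below every non-lactating one at 1 week, beside 14.1% of all genes, and 3 did at 3 weeks (Cd180, Tlr3 and Tlr7), beside 10.4%. The lactation effect was then compared between the times. In edgeR 0 of the 10 members passed (all adjusted p = 0.999), beside 0.00685% of all genes, and 0 had an unadjusted p under 0.05, beside 4.42%. In DESeq2 0 members passed too, beside 0.055% of genes. Tlr3 came nearest, with a difference between the effects of -0.41 (SE 0.20, unadjusted p = 0.0535). For Cd180 it was -0.54 (SE 0.43, unadjusted p = 0.227 in edgeR), so the larger fold at 3 weeks was not told apart from that at 1 week.

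Surface and endosomal genes were then compared in their lactation effect. The 5 surface genes had a median log2 fold change of -0.76 at 1 week and -0.56 at 3 weeks, and the 4 endosomal receptors -0.51 and -0.63. The mean log2 CPM of the surface genes minus that of the endosomal receptors was -0.418 ± 0.192 (SD, n = 3) at 1 week without lactation and -0.615 ± 0.030 with it, and -0.829 ± 0.123 at 3 weeks without lactation and -0.867 ± 0.091 with it. Only the change of this difference between groups is read here, not its sign. At 1 week the lactating libraries ran from -0.640 to -0.581 and the non-lactating ones from -0.581 to -0.206, touching at 1 value (exact permutation p = 0.2), and at 3 weeks the groups overlapped (exact permutation p = 0.8). With 3 libraries against 3 the smallest p this two-sided test can give is 0.1, so it could not have passed 0.05. All 6 libraries at 3 weeks lay below all 6 at 1 week, from -0.972 to -0.689 against -0.640 to -0.206. The 3-week columns hold estimated counts with decimals and the 1-week columns whole counts, so time and the way of counting cannot be told apart.

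**Figure D3:**
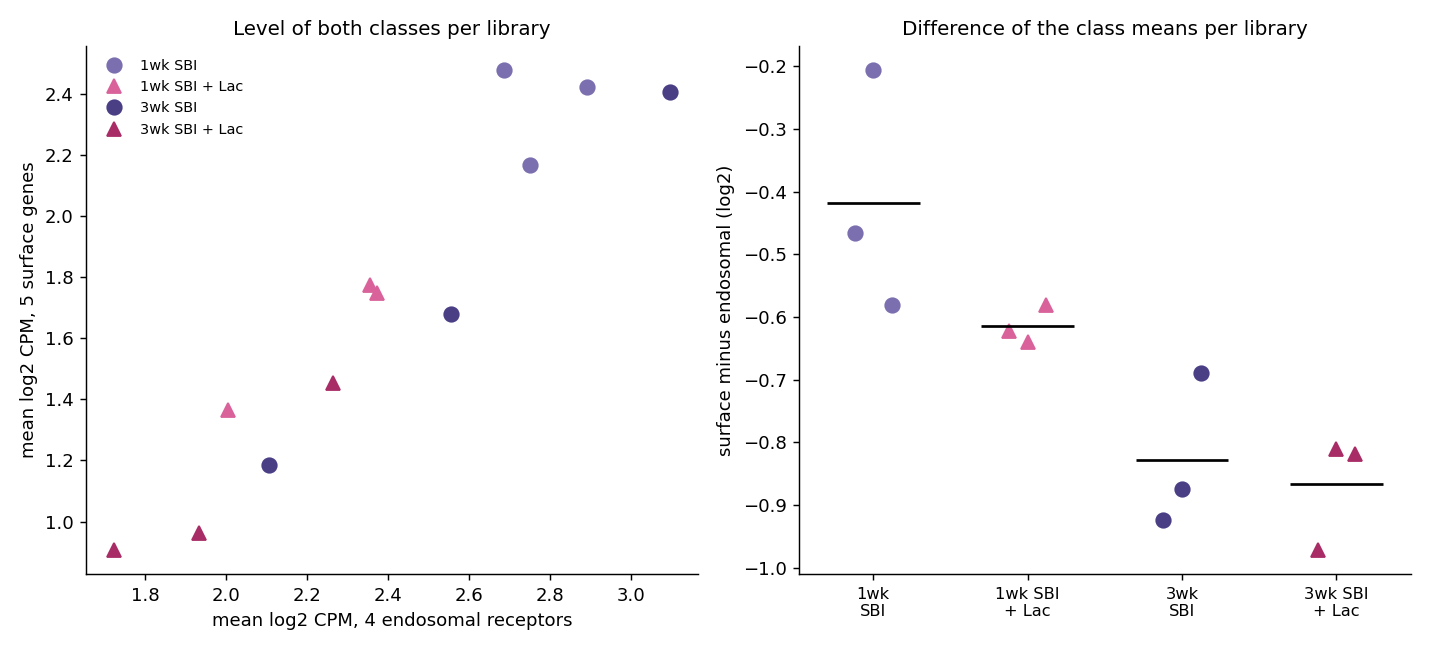
Left, mean log2 CPM of the 5 surface genes (y axis) against that of the 4 endosomal receptors (x axis) in each of the 12 libraries. Right, the surface mean minus the endosomal mean (y axis, log2) by group, with the group mean as a bar. Both classes were high in the same libraries, and the difference was lower in all 3-week libraries (at most -0.689) than in all 1-week libraries (at least -0.640).

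The same limit holds for the single members over time. Without lactation, 9 of 10 members were lower at 3 weeks than at 1 week and 0 passed both cutoffs, beside 1.46% of all genes in edgeR. At an unadjusted p under 0.05 there were 2 members, beside 21.2% of all genes, and in DESeq2 0 passed both cutoffs, beside 2.25%. Tlr3 was the exception in direction (0.19, SE 0.14), and the groups did not overlap for 1 member, Cd180 (-0.71, SE 0.28, adjusted p = 0.162), beside 11.4% of all genes. Without 3wk SBI replicate 3, Tlr2 passed (-1.18, adjusted p = 0.0259 in edgeR, against -0.71 with it). Cd14 (-0.73, adjusted p = 0.0366) and Tlr8 (-0.58, adjusted p = 0.0307) then fell below the adjusted p cutoff only. The median of the members moved from -0.19 to -0.63. The share of all genes that passed in that fit is not reported here, so the call of Tlr2 is not set against it. With lactation, all 10 were lower and 0 passed in edgeR, beside 0.774% of all genes. At an unadjusted p under 0.05 there was 1 member, beside 18.1% of all genes, and in DESeq2 1, Cd180, passed both cutoffs, beside 1.74%. The groups did not overlap for 2, Cd180 (-1.25, SE 0.32, adjusted p = 0.0596) and Tlr3 (-0.22, SE 0.14), beside 14.7%. The mean CPM followed the order 1wk SBI, 3wk SBI, 1wk SBI + Lac, 3wk SBI + Lac from highest to lowest for 9 members, and only for Tlr3 was 3wk SBI the highest. Without 3wk SBI replicate 3 this order held for 3 members (Cd180, Tlr8 and Tlr9), and the 3wk SBI mean was below that of 1wk SBI + Lac for the other 6 of the 9, as for Tlr2 (4.05 against 4.75 CPM) and Cd14 (4.12 against 5.36 CPM). The highest mean was between 1.36 times (Cd14 and Myd88) and 5.48 times (Cd180) the lowest.

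Among other Toll-like receptors and partner molecules, 11 of 11 tested genes were lower with lactation at both times (medians -0.71 and -0.49), and 0 passed both cutoffs. Tlr1, the partner of Tlr2, had log2 fold changes of -1.71 and -1.63 (adjusted p = 0.134 and 0.153), although reads may be split between Tlr1 and its close relative Tlr6 (-0.61 and -0.28). Tlr10 had -1.45 at 1 week (adjusted p = 0.284), and at 3 weeks it held 1, 1 and 39 counts without lactation and 0, 3 and 0 with it, too few for a fold. Tlr12 had -0.97 and -1.53 (adjusted p = 0.490 and 0.302). Ly96, which completes the Tlr4 receptor, had -0.57 and -0.20. Of 9 genes that fold and carry the receptors, 7 were lower at 1 week and 4 at 3 weeks, and none passed. Unc93b1, the carrier of the endosomal receptors, had -0.65 and -0.50 (adjusted p = 0.0987 and 0.170), and Cnpy3, a chaperone of several receptors, -0.46 and -0.42.

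The signaling steps behind the receptors had medians nearer to 0. Of 20 tested adaptors and kinases, 11 were lower at 1 week and 10 at 3 weeks, with medians of -0.06 and -0.02, and 0 passed both cutoffs. Btk (-1.04 and -0.80) and Syk (-0.68 and -0.69), kinases abundant in leukocytes, and the adaptor Ticam2 (-0.36 and -0.81) had the largest values. Those that act after Myd88 went both ways. Ikbkb (0.54 and 0.41, adjusted p = 0.0632 and 0.101) and Tab2 (0.49 and 0.48, adjusted p = 0.0730 and 0.0608) were higher with lactation at both times. Map3k7 (-0.07 and -0.36, adjusted p = 0.732 and 0.0749) and Peli1 (0.08 and -0.41, adjusted p = 0.760 and 0.0903) were lower at 3 weeks. Irak1 had 0.04 and 0.14 and Traf6 0.08 and -0.07. Traf3 was lower at 3 weeks by the adjusted p (-0.42, adjusted p = 0.0454) but under the fold cutoff. Of 12 downstream transcription factors, 10 were lower at 1 week and 7 at 3 weeks, and 0 passed both cutoffs. Irf8, a factor of myeloid and dendritic cell development, had -1.41 and -1.19 (adjusted p = 0.125 and 0.173), and the interferon factor Irf7 -0.42 and -1.29 (adjusted p = 0.649 and 0.159). Irf5, which acts after Myd88, had -0.94 and -0.93 (adjusted p = 0.172 and 0.169). Jun (0.67, adjusted p = 0.0141) and Atf3 (0.90, adjusted p = 0.0474) were higher at 3 weeks by the adjusted p but under the fold cutoff. The 5 subunits of NF-kappaB ran from -0.32 (Rel) to 0.15 (Nfkb2) at 1 week and from -0.46 (Nfkb2, adjusted p = 0.149) to 0.06 (Nfkb1) at 3 weeks.

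Of 12 tested negative regulators, 6 were lower at 1 week and 8 at 3 weeks, with medians of -0.02 and -0.15 and 0 past both cutoffs. Dok3 had the largest log2 fold change at 1 week (-1.36, adjusted p = 0.141) and Socs1, an inhibitor of cytokine signaling, at 3 weeks (-1.10, adjusted p = 0.240). Of the genes that the receptors induce, 10 of the 17 in the table passed the low-count filter and 8 of these were lower at each time, with medians of -0.66 and -0.75 and 0 past both cutoffs. Among them Ccl5, a chemokine for T cells and monocytes, had -1.40 and -1.51 (adjusted p = 0.278 and 0.236), and Ifnb1 was at 0 counts in all groups. Of the 10 tested endogenous ligands, 6 and 8 were lower, among them the matrix glycoprotein Tnc (-1.53 and -1.16), Sdc1 (-1.06 and -0.85) and Fn1 (-0.62 and -1.04), none past the cutoffs.

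**Figure D4:**
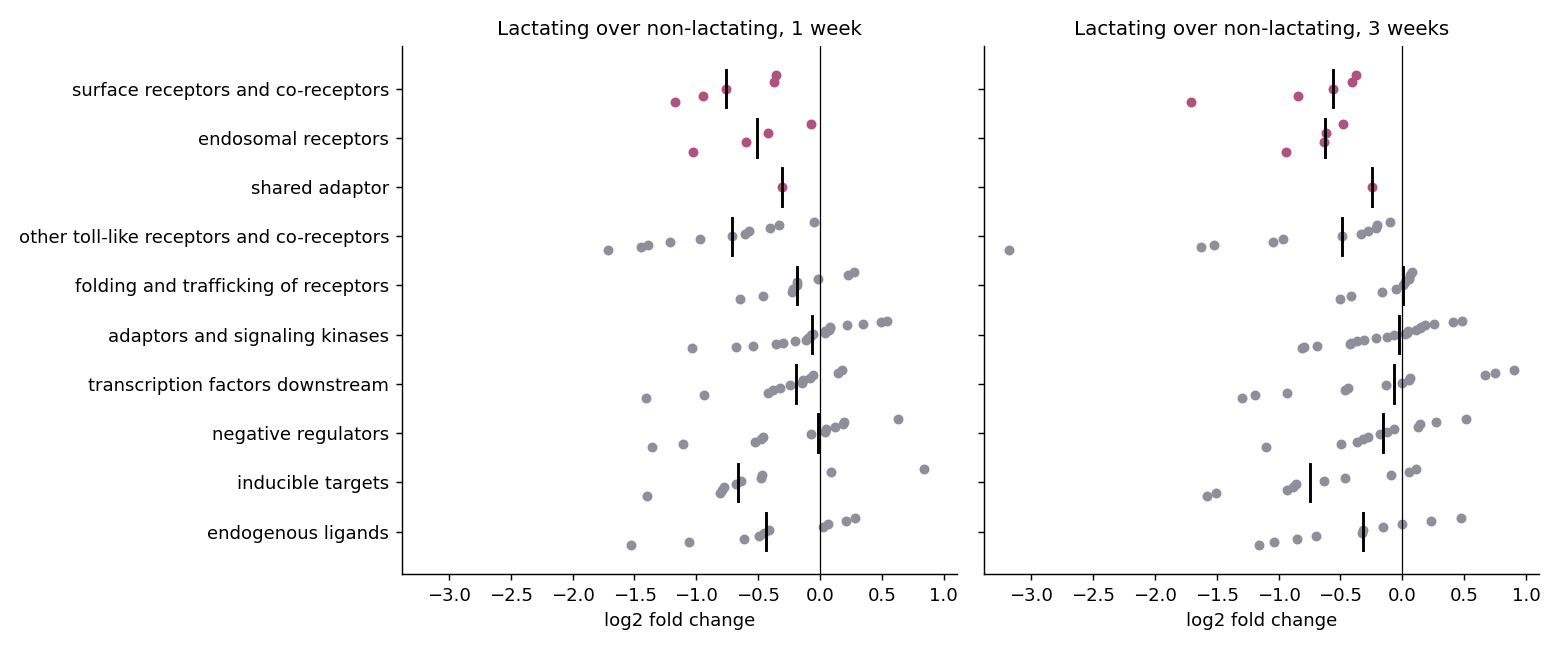
Log2 fold change of lactating over non-lactating muscle (x axis, the same in both panels) at 1 week (left) and 3 weeks (right) for every tested gene (points) of the member classes (pink) and the other pathway groups (gray), with the group median (bar). The leftmost point at 3 weeks is Tlr10, which rests on few counts. Receptor groups lie left of 0, whereas adaptors and kinases have medians of -0.06 and -0.02.

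Markers of cells that carry these receptors were lower in lactating muscle too. Of 14 macrophage and monocyte markers, 13 were lower with lactation at 1 week and 14 at 3 weeks, with medians of -0.48 and -0.46. Their summed level was 616 to 686 CPM in 1wk SBI, 401 to 564 CPM in 1wk SBI + Lac, 465 to 1008 CPM in 3wk SBI and 422 to 681 CPM in 3wk SBI + Lac. The 1008 CPM belonged to replicate 3 of 3wk SBI, which had the highest level of every member within its group. Across all libraries it was not the highest for every member, as for Tlr2 (7.93 CPM, against 10.4 CPM in 1wk SBI replicate 2). Cd68, a lysosomal macrophage protein, passed both cutoffs at 3 weeks (-1.08, adjusted p = 0.0150 in edgeR). The part of cell content in the members' differences was not tested.

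Tlr7 and Tlr9 are also known from plasmacytoid dendritic cells, and Cd180, Tlr9 and Tlr10 from B cells. All 7 tested plasmacytoid dendritic cell markers were lower at both times (medians -1.03 and -0.93), and Spib, a factor of these cells and of B cells, passed at 3 weeks (-2.80, adjusted p = 0.0383, on 1, 13 and 0 counts with lactation and 7, 10 and 90 without). All 7 conventional dendritic cell markers were lower too (-0.82 and -0.59), with Flt3 past both cutoffs at 3 weeks (-1.54, adjusted p = 0.0408). All 6 tested B cell markers were lower (-0.94 and -1.31), but their summed level ran from 5.39 to 243 CPM in 3wk SBI + Lac and from 6.07 to 301 CPM in 3wk SBI. All 7 T cell markers (-0.87 and -0.80) and the 3 tested neutrophil markers of 9 (-1.12 and -1.14) were lower, and the neutrophil genes Elane and Ltf were at 0 counts in every group. Fibroblast markers were lower for 7 of 8 at both times (-0.37 and -0.48), and endothelial markers for 4 of 7 (-0.06 and -0.09).

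Skeletal muscle RNA was abundant in every library, where the 9 myofiber markers summed to between 95160 and 219800 CPM. These markers do not tell the pubocaudalis from other skeletal muscles. They were higher with lactation for 9 of 9 at 1 week (median 0.50) and 8 of 9 at 3 weeks (0.34). Their summed level was 95160 to 147900 CPM in 1wk SBI and 144800 to 173300 CPM in 1wk SBI + Lac, which overlapped, and 136000 to 185500 CPM in 3wk SBI and 199700 to 219800 CPM in 3wk SBI + Lac, which did not. Within 3wk SBI the library with the highest member levels had the lowest myofiber sum. Adipocyte markers had medians of -0.08 and 0.08, and red blood cell markers were higher for 4 of 4 at both times (1.26 and 0.40). The summed level of the 9 milk and mammary epithelium markers varied widely between lactating libraries. It was 1.31 to 3.59 CPM in 1wk SBI + Lac and 0.660 to 39.9 CPM in 3wk SBI + Lac. Without lactation it was 0.726 to 1.82 CPM in 1wk SBI and 0.768 to 2.68 CPM in 3wk SBI. The milk genes Csn2, Csn1s2a, Wap, Lalba and Csn3 were at 0 counts in every non-lactating library. Their part in the members' differences was not tested.

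Genes with the most similar pattern were sought over the 12 libraries, as Pearson's r of log2 CPM centered within each time point. These libraries share groups, depth and cell content, so r is a description. For Tlr2 they were Ftl1 (r = 0.984), Irf8 (0.982) and the myeloid integrin Itgam (0.980), and for Tlr8 Actb (0.980), Laptm5 (0.977) and Skap2 (0.966). For Cd180 the first was Mmp12, the macrophage elastase (0.986), followed by Osbpl5 (0.955) and Cdk2 (0.954). Tlr7 was most like Lilrb3l (0.966), Tlr9 most like Kcnn4 (0.970), Tlr4 most like Myh9 (0.970) and Cd14 most like Fut4 (0.966). Tlr3 (Zc3h7b, 0.926), Ly86 (Scimp, 0.925) and Myd88 (Tlr5, 0.920) had looser matches. Between the members themselves, the 45 pairs had r from 0.232 to 0.934, with a median of 0.704.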

How the data were processed

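Pubocaudalis messenger RNA was sequenced from stranded libraries in 4 groups of 3. Each library pooled RNA of 2 rats, so p-values measure the spread between pools. The authors deposited one gene table: the 1-week columns hold whole counts and the 3-week columns, as deposited, hold estimated counts with decimals, neither normalized. Salmon is named in the submitters' processing notes. Its version, the annotation and the build are not given in the sources used here. The 3-week estimated counts were rounded.

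Counts were fitted in edgeR 4.0.16 (R 4.3.3) with TMM normalization, filterByExpr (14599 of 30206 genes and all 10 members kept) and a quasi-likelihood test over all 12 libraries, with Benjamini-Hochberg adjustment over all tested genes and cutoffs of 0.05 and an absolute log2 fold change of 1. Each SE was derived as the absolute log2 fold change divided by the square root of that test's F statistic, so it is approximate. The script was tested on simulated data. DESeq2, the tool named in the study's methods (run here as version 1.42.0), and other normalizations, filters, library subsets, thinning and leave-one-out fits were alternatives. Ratios of counts were compared by exact permutation.

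Named genes are all members, pathway genes past both cutoffs, otherwise at most 3 per list with the largest change, and the 3 genes most alike per member. Outside this rule, Ly96, Tlr6, Irak1, Traf6, Traf3, Ikbkb, Tab2, Jun, Atf3, Nfkb1, Nfkb2, Rel and Ifnb1 were named after their values were seen. So were Map3k7, Peli1 and Cd163. The members and lists were chosen with earlier results of these data known.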

Additional observations from a re-analysis of the deposited data

How the results depend on the processing

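At 1 week, 10 of 10 members were lower under every alternative that kept them, and at 3 weeks under all but leaving out 3wk SBI replicate 3. Over both times, 291 of 294 member values stayed below 0. The number of members past both cutoffs at 1 week was 0, but 1 (Cd180) with DESeq2 on all libraries, 1 with DESeq2 and 1 with edgeR on only the 1-week libraries, and 1 with counts thinned to the lowest library total. At 3 weeks it was 1, but 0 with DESeq2 (Cd180 adjusted p = 0.0503) and 0 with edgeR on only the 3-week libraries. It was also 0 with at least 10 counts in every library, which removed Cd180, Ly86 and Tlr9 from the test. For 3 weeks over 1 week with lactation it was 1 (Cd180) in place of 0 with DESeq2 on all libraries. Leaving out each library gave 0 to 1 at 1 week, 0 to 1 at 3 weeks and 0 to 1 over time without lactation. The share of all genes passing in each of these leave-one-out fits is not reported here, so these counts have no background beside them. Among all genes, DESeq2 called 188 and 247 genes at 1 and 3 weeks in place of 37 and 108, DESeq2 and edgeR on only the libraries compared called 333 and 110 at 1 week and 176 and 73 at 3 weeks, the adjusted p with no fold cutoff 83 and 371, the stricter filter 22 and 86, and thinning 47 and 71.

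The replicate block gave 0 members at 3 weeks in place of 1, and 5 and 26 genes in all at 1 and 3 weeks. Libraries with the same number correlated negatively (-0.05 to -0.233) and none correlated best with its own number. No pairing by number was thus seen, although 3 libraries per group are few for such a check. The replicate block turned the difference between the lactation effects to 0.042 (Tlr4), 0.19 (Cd14) and 0.089 (Tlr8), and the time difference with lactation to 0.013 (Cd14) and 0.0049 (Tlr9).

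Other values, many but not all of them near 0 in the main fit, changed sign elsewhere, and the cause was not tested. For the difference between the lactation effects, DESeq2 gave 0.0035 for Cd14, and thinning gave 0.12 (Tlr4), 0.063 (Cd14), 0.054 (Cd180), 0.0094 (Tlr8) and -0.012 (Myd88). Thinning also gave 0.18 (Cd14) over time without lactation, and 0.24 (Cd14) and 0.29 (Tlr9) with it. Leaving out single libraries gave ranges for the lactation effect at 3 weeks of -0.59 to 0.33 (Cd14), -0.91 to 0.0042 (Ly86) and -0.46 to 0.095 (Myd88). For the difference between the effects they were -0.38 to 0.58 (Tlr2), -0.26 to 0.33 (Tlr4), -0.24 to 0.68 (Cd14), -0.15 to 0.76 (Ly86), -0.35 to 0.093 (Tlr7), -0.19 to 0.39 (Tlr8), -0.24 to 0.60 (Tlr9) and -0.15 to 0.40 (Myd88). Every upper end named for the 3-week effect and for this difference was reached without 3wk SBI replicate 3. Over time without lactation the ranges were -0.73 to 0.20 (Cd14), -0.45 to 0.0046 (Tlr7), -0.63 to 0.18 (Tlr9) and -0.54 to 0.021 (Myd88). With lactation they were -0.20 to 0.076 (Cd14), -0.58 to 0.18 (Ly86) and -0.36 to 0.22 (Tlr9). Depth limits Cd180, Ly86 and Tlr9 most, with under 10 counts in a 3-week library. The order of group means, left out library by library as a choice made after seeing the data, held for 3 to 9 members in place of 9.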
